A study of Mus musculus with 4 samples.

Results

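Hypoxic melanocytic tumour cells are pigment cells of a tumour that carry the transcripts induced by low oxygen. They were picked from 4 droplet single-cell RNA libraries of mouse tumours by a score of 10 genes. A barcode entered the gate with at least 8000 UMIs (unique molecular identifiers, each counting 1 captured RNA molecule), a mitochondrial share of 0.5 to 20%, at least 0.3% of its UMIs from the pigment genes Dct, Pmel, Mlana and Tyrp1 together, and fewer than 2 UMIs per 10000 from the cycling genes Top2a and Cenpf. The score is the number of UMIs of Car9, Bnip3, Vegfa, Ero1l, Hilpda, Selenbp1, Espn, Nppb, Ankrd37 and Egln3 per 10000 UMIs of the cell, and the hypoxic cells are the top 15% of it over all libraries together. The rule gave 583 hypoxic cells among 3887 gated cells, out of 7493 barcodes with at least 8000 UMIs. The remaining 3304 are called the other gated cells.

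The series title concerns enzyme-carrying nanocapsules and cancer immunotherapy, and its design sets treated against untreated tumours. Tumours of C57Bl6 mice aged 6-8 weeks, whose cells are labelled cancer cells, gave 2 libraries labelled Nanocapsule and 2 labelled Control. The labels give no tumour line, genotype, nanocapsule content, dose or schedule. They name no animals or capture days, so p-values measure only the spread between these 4 libraries, which may be technical.

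Cells sense oxygen through the HIF pathway. In normal oxygen, EGLN prolyl hydroxylases mark the HIF alpha subunits, which the VHL ubiquitin ligase then sends for destruction. When oxygen is short, HIF alpha accumulates, joins ARNT and binds short DNA motifs at genes for glycolysis, blood vessel growth, pH control, mitophagy and oxygen sensing itself. Solid tumours, those of pigment cells among them, often hold poorly perfused regions in which such genes are active.

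The 4 libraries held 98943390 to 140491491 UMIs, and the gated cells are deep, with a median of 32857 to 73238 UMIs per hypoxic cell and 36105 to 83827 per other gated cell. Hypoxic cells were somewhat shallower than the other gated cells of the same library in all 4 libraries. Thinned to 8000 UMIs each, hypoxic cells still had fewer genes detected, with medians of 2785, 2819, 2767 and 2775 in Nanocapsule 1, Nanocapsule 2, Control 1 and Control 2, against 2940, 2992, 2932 and 3014 in the other gated cells. No doublet caller was run on these barcodes. In place of one, the RNA of 11 immune genes was followed: it came to 6.22, 38.2, 13.9 and 4.89 CPM (counts scaled to a common total of 1000000 UMIs) in hypoxic cells and 41.4, 75.04, 18.5 and 22.6 CPM in the other gated cells, in the same library order. The hypoxic cells were thus lower in immune RNA in every library. No hypoxic barcode and 2 gated barcodes occurred in more than 1 library. All series of 4 values below run in the order Nanocapsule 1, Nanocapsule 2, Control 1, Control 2.

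The score was continuous, with no gap at the threshold. Its median was 62.1 per 10000 in hypoxic cells and 8.48 in the other gated cells, and the highest cell had 171. The threshold fell at 46.6: the 20 hypoxic cells nearest to it scored 46.6 to 47.4 and the 20 other gated cells nearest to it 45.9 to 46.6. Within 10% of the threshold lay 206 cells, or 5.30% of the gated cells, so the hypoxic cells are the upper end of a range rather than a separate cluster. When the score was recomputed after thinning every cell to 8000 UMIs, 92.4%, 93.3%, 89.8% and 86.8% of the hypoxic cells of the 4 libraries stayed above the thinned threshold.

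Regulatory sequence is shown for 5 score genes, since HIF binds DNA by the core letters ACGTG or GCGTG. All 10 score genes matched a RefSeq promoter (build GRCm38.p6), Ero1l under its newer name Ero1a. Each line gives the 250 bases before the annotated start, 5′ to 3′ on the gene's strand, with every ACGTG or GCGTG in capitals on either strand (CACGT and CACGC are the same letters read from the other strand), overlapping matches included. The first 2 carry most of the score, Car9 is the best-known hypoxia marker, Ankrd37 has a match close to its RefSeq start, and Nppb is the score gene with no match. Starts depend on the annotation. In GENCODE vM21 the minus-strand gene Ankrd37 begins at chr8:46005707 and Car9 at chr4:43506966, so distances here hold for the RefSeq starts only.
Ero1l, chr14:45318573-45318822, minus strand: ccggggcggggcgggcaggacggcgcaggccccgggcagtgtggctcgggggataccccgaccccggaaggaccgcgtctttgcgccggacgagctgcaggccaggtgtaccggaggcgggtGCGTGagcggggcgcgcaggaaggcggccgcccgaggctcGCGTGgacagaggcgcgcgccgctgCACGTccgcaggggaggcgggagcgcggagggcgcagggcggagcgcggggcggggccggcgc
Bnip3, chr7:138909507-138909756, minus strand: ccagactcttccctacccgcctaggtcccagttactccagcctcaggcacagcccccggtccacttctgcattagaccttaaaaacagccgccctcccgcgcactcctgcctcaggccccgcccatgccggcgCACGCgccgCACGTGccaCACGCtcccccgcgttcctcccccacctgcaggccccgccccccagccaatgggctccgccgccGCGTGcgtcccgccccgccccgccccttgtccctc
Car9, chr4:43506776-43507025, plus strand: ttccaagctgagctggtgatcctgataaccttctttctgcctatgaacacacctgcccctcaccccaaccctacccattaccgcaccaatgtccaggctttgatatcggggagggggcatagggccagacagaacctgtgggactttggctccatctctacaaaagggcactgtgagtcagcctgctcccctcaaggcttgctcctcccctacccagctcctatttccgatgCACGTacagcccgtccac
Ankrd37, chr8:45999851-46000100, minus strand: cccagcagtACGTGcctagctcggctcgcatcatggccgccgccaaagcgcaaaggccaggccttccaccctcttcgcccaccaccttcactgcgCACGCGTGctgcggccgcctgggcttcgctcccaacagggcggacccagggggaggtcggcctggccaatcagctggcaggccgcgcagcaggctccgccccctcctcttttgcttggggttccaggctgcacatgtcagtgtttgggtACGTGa
Nppb, chr4:147985650-147985899, plus strand: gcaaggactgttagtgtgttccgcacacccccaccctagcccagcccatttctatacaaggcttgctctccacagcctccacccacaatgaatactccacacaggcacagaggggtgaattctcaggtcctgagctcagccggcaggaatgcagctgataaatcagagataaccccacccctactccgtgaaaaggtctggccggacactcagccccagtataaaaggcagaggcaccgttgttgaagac

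Bnip3 holds 5 matches, Ankrd37 4, Ero1l 3 and Car9 1, whose last base lies 14 bases before the RefSeq start. At least 1 match stood before any annotated start in 9 of the 10 score genes, against 65.8% of the 6676 matched genes among those compared by level below and 41.5% of all 27025 genes in the promoter table. For ACGTG alone the count was 8 of 10, against 27.5% and 18.5%. Of a list of 35 other known HIF targets, 24 matched a promoter and 21 of these held either core. Of the 16 listed DNA replication genes, 12 matched and 7 held either core. These letter matches are a description of the sequence and not a map of binding.

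The score genes themselves chose the cells, so their levels are given without a test. Ero1l, the oxidase that drives disulphide formation in the endoplasmic reticulum, supplied 34.7 to 38.5% of the score UMIs in the hypoxic cells of the 4 libraries. It stood at 2498, 2729, 2251 and 2363 CPM in hypoxic cells, against 349, 300.1, 310.5 and 169.6 CPM in the other gated cells. It was the leading score gene in 436 of the 583 hypoxic cells. Bnip3, a mitophagy receptor of the outer mitochondrial membrane, supplied a further 21.5 to 25.9% and led in 136 cells. It had 1427, 1549, 1638 and 1762 CPM in hypoxic cells and 513, 456, 536 and 256 CPM in the other gated cells. These genes therefore weigh most in who counts as hypoxic.

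Car9, the cell-surface carbonic anhydrase that acidifies the surroundings of hypoxic tumour cells, had 539, 449, 550.2 and 531 CPM in hypoxic cells and 182, 124, 166 and 76.2 CPM in the other gated cells. Vegfa, the main growth signal for blood vessels, had 555, 610.0, 502 and 589.5 CPM in hypoxic cells and 117, 94.97, 107 and 58.2 CPM in the other gated cells. Hilpda, which blocks the breakdown of lipid droplets, had 490.0, 658, 409 and 449.6 CPM in hypoxic cells and 112, 88.9, 82.3 and 52.7 CPM in the other gated cells. For all 3 genes every library's hypoxic value was above every library's value in the other gated cells, and Control 2 was lowest among the other gated cells. Selenbp1 (a methanethiol oxidase) had 395, 409, 402 and 387 CPM in hypoxic cells, against 89.2, 67.1, 78.8 and 35.6 CPM in the other gated cells. Espn, an actin-bundling protein, had 371, 362, 389.9 and 342 CPM in hypoxic cells, against 69.6, 54.4, 66.9 and 33.99 CPM in the other gated cells. Nppb, which encodes the B-type natriuretic peptide best known from the heart, had 243, 196, 167 and 236 CPM in hypoxic cells, against 36.5, 31.9, 31.1 and 19.8 CPM in the other gated cells. The ratios of Espn and Nppb were larger than that of Car9 in every library. Ankrd37, an ankyrin-repeat protein induced by HIF, had 123, 117, 149.8 and 137 CPM in hypoxic cells and 30.4, 22.04, 34.7 and 14.2 CPM in the other gated cells.

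Egln3, an oxygen-sensing prolyl hydroxylase, hardly contributed. It had 3.34, 2.88, 6.06 and 5.64 CPM in hypoxic cells and 2.79, 2.66, 3.19 and 1.89 CPM in the other gated cells, at most 0.0937% of the score UMIs. Macrophage-like barcodes (at least 10 per 10000 UMIs from C1qa, C1qb and C1qc) held 94.2, 45.0, 43.5 and 27.1 CPM of it. In these tumours Egln3 RNA was therefore more abundant in macrophage-like than in hypoxic pigment cells, in every library.

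**Figure D1:**
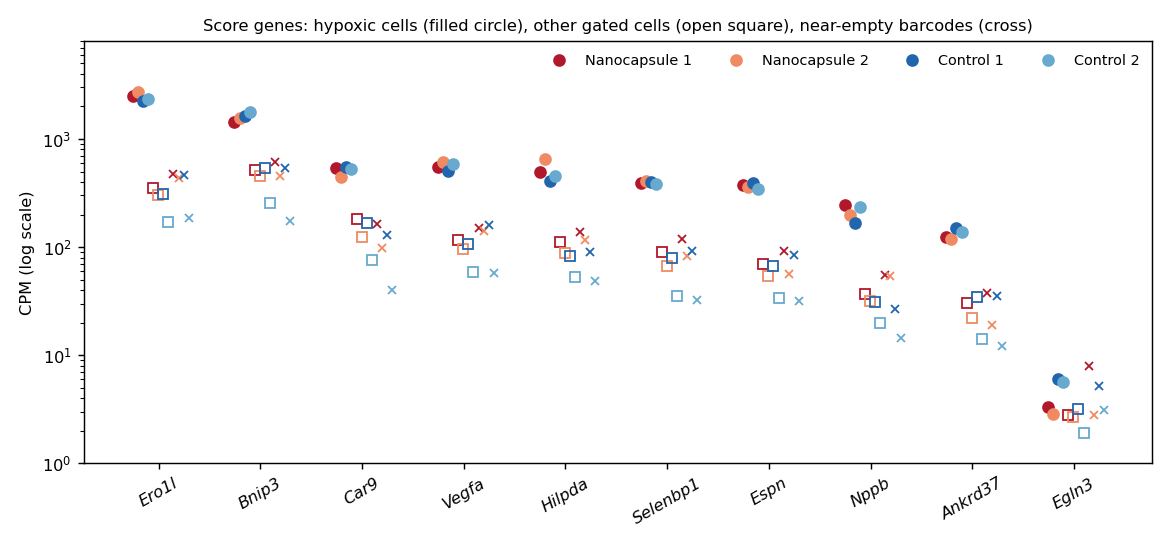
Level of each score gene in CPM (log scale) in hypoxic cells (filled circles), other gated cells (open squares) and near-empty barcodes (crosses), 1 colour per library. Hypoxic cells lie above the other gated cells for all 10 genes in every library. The other gated cells mostly lie close to the near-empty barcodes, for Car9 at 124 CPM against 98.9 CPM in Nanocapsule 2. They lie farther apart for Car9 in Control 2, at 76.2 against 40.0 CPM. For Egln3 in Nanocapsule 1 the near-empty barcodes (7.99 CPM) lie above both the other gated (2.79 CPM) and the hypoxic cells (3.34 CPM).

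Free RNA in the droplets is a background to these levels. Near-empty barcodes, with at most 100 UMIs, held Car9 at 164, 98.9, 129 and 40.0 CPM and Ero1l at 475, 433, 469 and 184 CPM. These levels were mostly close to those of the other gated cells, less so for Car9 in Control 2 (76.2 CPM in the other gated cells). Thinned to 8000 UMIs each, 95.2% of hypoxic cells had a Car9 UMI, against 46.2% of the other gated cells and 11.2% of 178 macrophage-like cells. For Espn the shares were 88.7% of hypoxic cells, 25.6% of the other gated cells and 0.562% of macrophage-like cells. For Nppb they were 52.3% and 15.8%, and 0 of the 178 macrophage-like cells, which allows a share of cells with a UMI at this depth of up to 1.69% and sets no limit on cells that express the gene. The part of free RNA in the other gated cells' levels was not tested.

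The number of score genes detected per cell follows in part from the rule and is given as a description. The median hypoxic cell, thinned to 8000 UMIs, had 8 of the 10 genes detected in each of the 4 libraries, against 4, 3, 4 and 2 in the other gated cells. A single gene made up most of the score UMIs in 19, 8, 15 and 2 hypoxic cells. Among the hypoxic cells, correlations between the score genes were weak. The median Spearman correlation over the 45 gene pairs, taken across the hypoxic cells of 1 library and then over libraries, was 0.01, and the pairs ran from -0.21 (Selenbp1 with Nppb) to 0.31 (Bnip3 with Selenbp1). These correlations, taken on cells thinned to 8000 UMIs, are a description. The cells were chosen by the sum of these same genes, which by itself pushes such correlations towards 0 or below. Cells of a library also share its free RNA.

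The share of hypoxic cells addresses whether treated tumours held more or fewer of them. It was 18.9% of the gated cells in Nanocapsule 1 (172 of 911) and 16.5% in Nanocapsule 2 (89 of 541), against 15.5% in Control 1 (284 of 1836) and 6.34% in Control 2 (38 of 599). The exact 95% Clopper-Pearson intervals were 16.4 to 21.6% for Nanocapsule 1, 13.4 to 19.8% for Nanocapsule 2, 13.8 to 17.2% for Control 1 and 4.53 to 8.60% for Control 2. Such intervals cover counting error only. The 2 nanocapsule libraries were above both controls, but the intervals of both nanocapsule libraries overlapped that of Control 1 and the spread between the controls was wide.

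Nanocapsule libraries averaged 17.7% ± 1.72 (SD, n = 2) and Control libraries 10.9% ± 6.45 (SD, n = 2), a difference of 6.76 percentage points (two-sided exact permutation test, p = 0.333). With 2 libraries against 2 there are 6 splits and 0.333 is the smallest p they can give, so this design cannot reach 0.05. The difference rested on Control 2: without it, it was 2.20 points, and without Control 1 it was 11.3 points. Without the gate on cycling cells, Nanocapsule 2 (15.6%) and Control 1 (15.7%) changed places. The whole score was low in Control 2, where the median gated cell had 3.14 per 10000, against 17.5 in Nanocapsule 1, 11.7 in Nanocapsule 2 and 14.2 in Control 1.

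**Figure D2:**
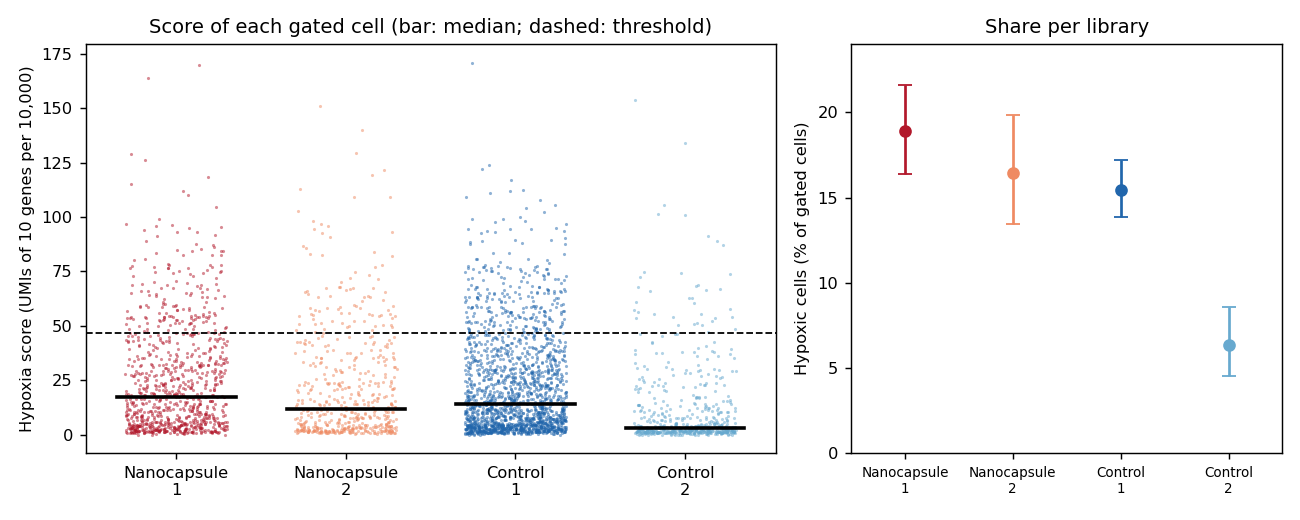
Left, the hypoxia score of each gated cell in UMIs per 10000, by library, with the median (bar) and the threshold for hypoxic cells (dashed). Right, the share of gated cells above the threshold with its 95% Clopper-Pearson interval; Control 2 stands below the other 3 libraries at 6.34%.

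Beyond the score genes, the hypoxic cells differed from the other gated cells of their own library across the transcriptome. Levels were summed over cells and compared within each library, and a gene counted as higher or lower when its CPM differed by at least 1.5-fold in the same direction in all 4 libraries. Among 8235 genes at a mean of at least 10 CPM, outside the score and gate genes, 470 were higher (5.71%) and 978 were lower (11.9%). Because the cells were split by their own RNA these counts carry no test. The median gene was at -0.17 on the log2 scale of hypoxic over other gated cells. After TMM normalisation, which shifts the median by 0.17, 728 genes were higher and 545 lower. The ratios below are unshifted, and a log2 ratio near -0.17 is that of the typical gene.

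Outside the score and gate genes, and among genes at 20 CPM or more, Tnfrsf9, Pgf and Ndrg1 came first when genes were ordered by their smallest log2 ratio over the 4 libraries. Pgf, placental growth factor, a ligand of the VEGF receptor family (chr12:85166635-85177790, minus strand, GRCm38), had 67.5, 147, 87.9 and 96.7 CPM in hypoxic cells, against 9.49, 9.73, 9.55 and 4.07 CPM in the other gated cells, a mean log2 ratio of 3.63 ± 0.77 (SD over 4 libraries). Tnfrsf9, the costimulatory receptor 4-1BB best known on T cells (chr4:150914562-150946102, plus strand), had 57.2, 65.6, 39.1 and 38.7 CPM in hypoxic cells, against 5.16, 5.37, 5.02 and 3.03 CPM in the other gated cells. Its log2 ratio was 3.43 ± 0.32. T and NK cell markers (Cd3e, Cd3d, Cd3g, Trbc2 and Nkg7) summed to 0 to 0.376 CPM in the hypoxic cells of the 4 libraries. Ndrg1, a stress-response gene long known as a hypoxia target (chr15:66929318-66969640, minus strand), had 225, 274, 234 and 190.0 CPM in hypoxic cells, against 33.3, 30.8, 30.7 and 14.6 CPM in the other gated cells, a log2 ratio of 3.13 ± 0.41. None of the 3 genes overlapped between the cell sets in any pair of libraries.

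The next 8 genes in that order had varied roles. Pkp2, a desmosomal plaque protein, had 103, 111, 93.02 and 97.1 CPM in hypoxic cells and 14.4, 12.5, 15.3 and 6.83 CPM in the other gated cells. Kctd16, an auxiliary subunit of GABA-B receptors, had 105, 146, 64.1 and 88.8 CPM in hypoxic cells and 17.8, 15.2, 10.8 and 6.88 CPM in the other gated cells. Ncam1, the neural cell adhesion molecule, had 92.5, 95.3, 104 and 106 CPM in hypoxic cells and 21.8, 19.2, 24.01 and 14.3 CPM in the other gated cells. Myl9, a regulatory myosin light chain, had a mean log2 ratio of 2.80 ± 0.75, Fosl2, an AP-1 transcription factor, 2.74 ± 0.44, and Ahr, the aryl hydrocarbon receptor, which shares the partner ARNT with HIF, 2.45 ± 0.34. Cxxc5, a zinc-finger protein, and Isg20, an exonuclease, had log2 ratios of 2.66 to 3.63 and 2.62 to 3.22 over the 4 libraries. All 8 were above every value of the other gated cells in every library.

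HIF target genes that the score had left out were higher too. Of 28 compared in the list of other HIF targets, 23 were higher and none was lower, with a median log2 ratio of 1.29 against -0.17 for all genes compared. The list was chosen with results of these data known, so it is no independent evidence of its direction. Adm, adrenomedullin, a vasodilator peptide, had 125, 153, 109.8 and 175 CPM in hypoxic cells and 34.4, 25.3, 31.2 and 15.7 CPM in the other gated cells. Gbe1, the glycogen branching enzyme, had 481, 609.7, 467 and 521 CPM in hypoxic cells and 125, 118, 114 and 82.2 CPM in the other gated cells. Zfp395, a zinc-finger transcription factor, had 24.5, 24.2, 29.4 and 21.4 CPM in hypoxic cells and 6.48, 5.23, 6.85 and 3.05 CPM in the other gated cells. In these 3 genes the log2 ratio was at least 1.82 in every library. Narf was the only member below 0 at the median, at -0.43.

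Of 5 angiogenic factors compared 4 were higher and none was lower, with a median log2 ratio of 2.15. Besides Pgf they were Ccn2, a matricellular protein, with 74.9, 31.5, 27.1 and 34.2 CPM in hypoxic cells and 6.98, 7.57, 4.97 and 5.14 CPM in the other gated cells, Pdgfa (a platelet-derived growth factor chain) with a log2 ratio of 1.45 to 1.91 over the libraries, and Ccn1, another matricellular protein. Ccn1 had 570.2, 551, 478 and 442 CPM in hypoxic cells and 120.1, 131, 110.0 and 97.8 CPM in the other gated cells, and its log2 ratio varied least between libraries among the named genes (2.15 ± 0.07). Vegfb was below 0 in every library, with a median log2 ratio of -0.59.

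Among 13 HIF pathway components compared, 2 were higher and 1 was lower, with a median log2 ratio of 0.30. Over all genes compared 5.71% were higher and 11.9% lower, so these are few calls to set against the background. Egln1, the main prolyl hydroxylase that marks HIF alpha, had 637, 588, 653 and 571 CPM in hypoxic cells and 249, 216, 241 and 119 CPM in the other gated cells. Vhl, the substrate receptor of the ligase that removes HIF alpha, had 39.1, 46.97, 39.8 and 53.8 CPM in hypoxic cells and 20.2, 22.2, 21.6 and 18.1 CPM in the other gated cells. Egln2, another of the hydroxylases, was lower, with 17.3, 15.5, 19.1 and 12.04 CPM in hypoxic cells and 28.02, 31.9, 33.2 and 36.1 CPM in the other gated cells, though not past 1.5-fold in every library after TMM normalisation. Hif1a itself had 296, 277, 255 and 307 CPM in hypoxic cells and 237, 224, 203 and 197 CPM in the other gated cells, higher in all 4 libraries but under 1.5-fold in some.

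In glycolysis, 8 of 18 genes were higher and none was lower, with a median of 0.76. Slc2a1, the glucose transporter GLUT1, had 325, 356, 330.4 and 351 CPM in hypoxic cells and 80.4, 66.4, 80.8 and 45.5 CPM in the other gated cells. Eno2, an enolase, had 41.5, 42.4, 37.3 and 22.2 CPM in hypoxic cells and 9.13, 8.68, 10.04 and 5.51 CPM in the other gated cells. Pfkp and Hk2, a phosphofructokinase and a hexokinase, had median log2 ratios of 1.49 and 1.20. Ldha, which turns pyruvate into lactate, was less different, with 3256, 3144, 3755 and 3297 CPM in hypoxic cells and 2742, 2567, 3031 and 2234 CPM in the other gated cells. Of 11 genes of lactate, pyruvate and pH handling, 1 was higher and none was lower: Pdk3, a kinase that switches off pyruvate dehydrogenase, with 124, 130.2, 125 and 134 CPM in hypoxic cells and 51.3, 48.1, 50.9 and 41.8 CPM in the other gated cells. Ldhb and Mpc1, the mitochondrial pyruvate carrier, were below 0 in every library, with medians of -0.59 and -0.63. The list's median was -0.21, close to that of all genes. The abundant glycolytic genes have processed pseudogenes, so their levels are uncertain where the authors' counting could split reads.

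The median respiratory chain gene stayed near the typical gene. Of 26 nuclear genes none was higher and 2 were lower, with a median of -0.20, and of 13 mitochondrial genes none was higher and 1 was lower, with a median of -0.22. The nuclear genes leaned low: 19 of the 26 were below 0 in every library and 0 above, against 51.2% and 26.7% of all genes. The nuclear list summed to 13648, 13251.5, 15073.5 and 13897 CPM in hypoxic cells and 15820, 15855, 17399 and 17164 CPM in the other gated cells. Sdhb, a subunit of complex II, had 384, 383, 422 and 353 CPM in hypoxic cells and 657, 655, 745 and 744 CPM in the other gated cells. The mitochondrial gene mt-Nd1, a complex I subunit, had 866, 966, 1171 and 745 CPM in hypoxic cells and 1925, 1868, 1845 and 1729 CPM in the other gated cells. After TMM normalisation no gene of either list passed 1.5-fold in every library. Of 14 mitophagy and autophagy genes 1 was higher, Bnip3l, a relative of Bnip3, with 596, 578, 659.8 and 638 CPM in hypoxic cells and 265, 218, 266 and 160.3 CPM in the other gated cells.

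**Figure D3:**
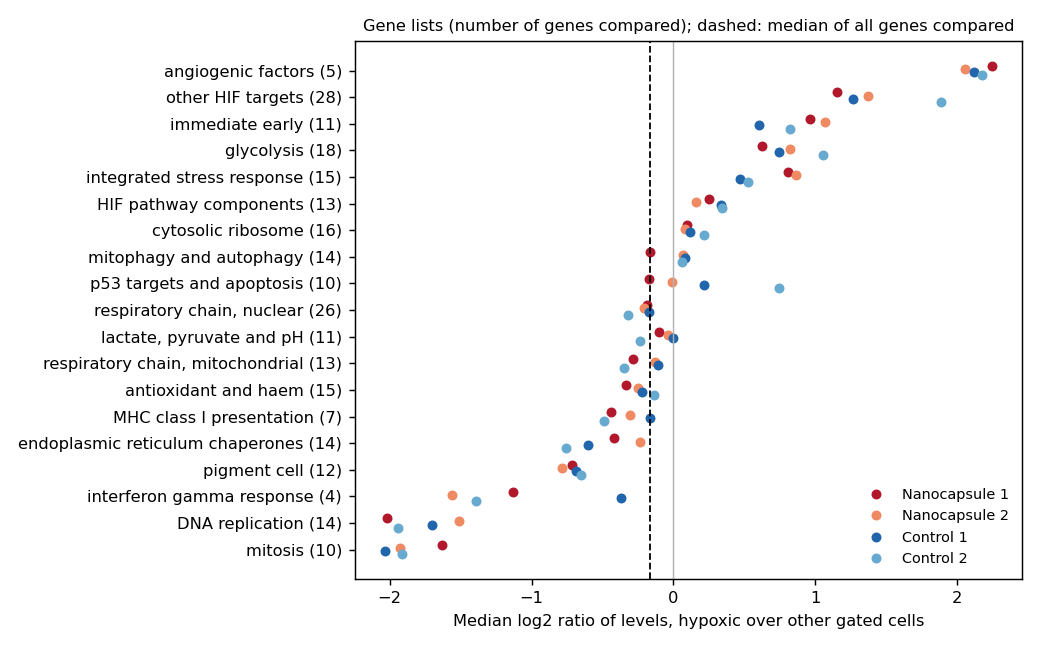
Median log2 ratio of levels, hypoxic over other gated cells, of each gene list in each library (coloured points), with the number of genes compared in brackets and the median of all genes compared as a dashed line at -0.17. Angiogenic factors and other HIF targets lie farthest to the right in all 4 libraries. Mitosis and DNA replication lie on the left, next to the interferon gamma response list in Nanocapsule 2.

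Stress genes were split. In the integrated stress response 4 of 15 genes were higher and none was lower (median 0.70): Trib3, a pseudokinase, with 104, 125, 83.02 and 86.5 CPM in hypoxic cells and 33.7, 37.8, 42.5 and 30.8 CPM in the other gated cells, and the transcription regulators Ddit3, Nupr1 and Atf4 with median log2 ratios of 1.29, 1.09 and 0.85. Endoplasmic reticulum chaperones showed none higher and none lower of 14, with a median of -0.51, and Calr, a calcium-binding chaperone, had 296, 342, 268 and 310.4 CPM in hypoxic cells and 448, 489, 461 and 532 CPM in the other gated cells. Of 11 immediate early genes 6 were higher and none was lower (median 0.88). Atf3 had 120.1, 212, 78.8 and 89.5 CPM in hypoxic cells and 36.4, 46.4, 22.4 and 21.5 CPM in the other gated cells, and Ier3 674, 829, 604 and 593 CPM in hypoxic cells and 209, 189.9, 193 and 102 CPM in the other gated cells.

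Hmox1, the haem oxygenase, was the 1 member of 15 antioxidant and haem genes that was higher, with 235, 517, 163 and 153 CPM in hypoxic cells and 132, 112, 63.2 and 65.00 CPM in the other gated cells. Prdx1, a peroxiredoxin, was the 1 member that was lower, with 979, 1011, 996 and 992 CPM in hypoxic cells and 1554, 1617, 1564 and 1853 CPM in the other gated cells, but not past 1.5-fold in every library after TMM normalisation. Of 10 p53 targets and apoptosis genes, Cdkn1a and Mdm2 were higher and none was lower. Cdkn1a, the cell-cycle inhibitor p21, had 406, 622, 463 and 646 CPM in hypoxic cells and 130.5, 96.1, 130.3 and 98.9 CPM in the other gated cells.

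Proliferation genes were lower in the hypoxic cells. The gate had already removed cells with much Top2a and Cenpf from both sets, and the difference lies within what remained. All 14 DNA replication genes compared were lower, with a median of -1.84, and 13 of 14 were lower after TMM normalisation. Of 10 mitosis genes 9 were lower and none was higher, with a median of -1.93. Rrm2, a subunit of ribonucleotide reductase, had 11.6, 14.1, 18.3 and 16.6 CPM in hypoxic cells and 80.3, 122, 94.3 and 133 CPM in the other gated cells. Birc5, survivin, had 19.9, 20.2, 15.3 and 23.7 CPM in hypoxic cells and 93.7, 133, 111 and 158 CPM in the other gated cells. Tk1, thymidine kinase, had 7.84, 11.97, 9.04 and 7.15 CPM in hypoxic cells and 55.9, 67.9, 54.7 and 71.7 CPM in the other gated cells. All 3 were lower in the hypoxic cells of every library than in the other gated cells of any library. The 12 genes at 20 CPM or more that were most negative even in their least different library were, in that order, Tk1, Pclaf, Rrm2, Birc5, Uhrf1, Cdca8, Lmnb1, Ccna2, Chaf1b, Cdc25a, Cdca3 and Cenpa, and their mean log2 ratios ran from -2.13 to -2.81.

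The pigment programme was also lower outside the gate genes. Of 12 genes 6 were lower and none was higher, with a median of -0.70, and 4 were lower after TMM normalisation. The largest differences were in Trpm1, a melanocyte ion channel, with 125, 126, 128 and 82.4 CPM in hypoxic cells and 330.1, 342, 338 and 329 CPM in the other gated cells, and Gpr143, Oca2 and Mc1r, the last being the melanocortin receptor, with medians of -1.40, -1.32 and -1.18. Mitf, the master regulator of melanocytes, had 229, 187, 249.8 and 277 CPM in hypoxic cells and 355, 332, 434 and 435 CPM in the other gated cells, lower in all 4 libraries. The 4 gate genes, which chose all gated cells, differed among themselves. Pmel, a melanosome matrix protein, had 1844, 1647, 2481 and 1549.6 CPM in hypoxic cells and 2577, 2447, 2957 and 2410.1 CPM in the other gated cells, and Mlana, a melanosome protein, had 922, 879, 1200.1 and 1036 CPM in hypoxic cells and 1647, 1706, 1882 and 1848 CPM in the other gated cells, both lower in every library. Dct, a melanin synthesis enzyme, had 3755, 3403, 3857 and 3510.0 CPM in hypoxic cells and 3931, 3942, 3855 and 3711 CPM in the other gated cells. Tyrp1, another such enzyme, had 2734, 2335, 2848 and 1956 CPM in hypoxic cells and 2335, 2261, 2456 and 1969 CPM in the other gated cells, higher in 3 of 4 libraries.

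The other HIF targets, glycolysis and DNA replication genes were graded along the score. When gated cells were sorted into deciles by score over all libraries, the summed level of the other HIF targets was 14382, 14185, 14953 and 14823 CPM in the highest decile, against 4827, 4079, 4661 and 4192 CPM in the lowest. Glycolysis genes summed to 24831, 25010.4, 26956 and 24777 CPM in the highest decile, against 9443, 9265, 10042 and 9145 CPM in the lowest. DNA replication genes ran the other way, at 222, 314, 286 and 267 CPM in the highest decile, against 1401, 1385, 1516 and 1405 CPM in the lowest. The sums of other HIF targets and of glycolysis were higher in each decile than in the one before it, in all 4 libraries. The immediate early list was less even: it summed to 2237, 2978, 2618 and 1876 CPM in the ninth decile, against 1092, 1775, 1495 and 1950 CPM in the fifth, so that Control 2, with 24 cells in the ninth, was not higher there. The pigment cell list differed less along the score, with 4889, 4153, 5377 and 4328 CPM in the highest decile, against 5501, 5622, 5487 and 5406 CPM in the lowest, and in Control 1 it was highest in between, at 6145 CPM.

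**Figure D4:**
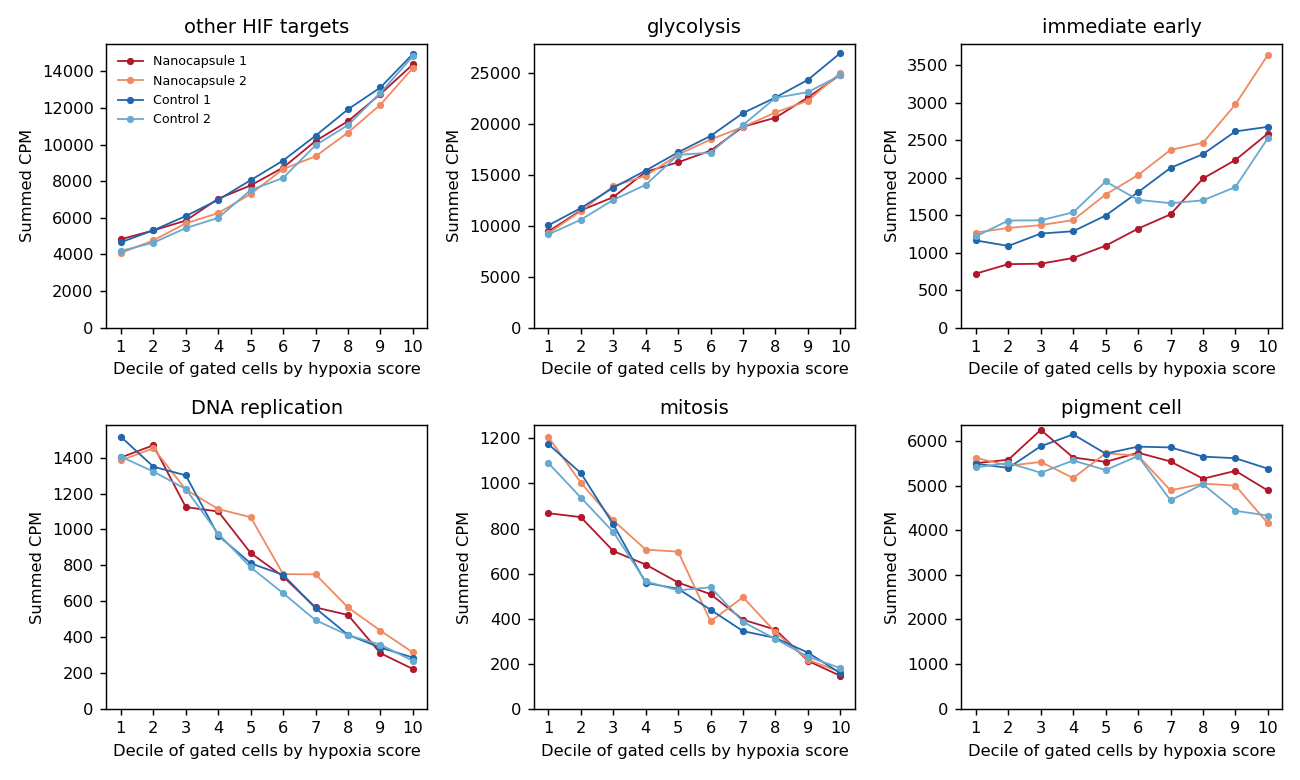
Summed level of 6 gene lists in CPM, by decile of gated cells sorted by hypoxia score over all libraries (1 is lowest), 1 line per library. Other HIF targets, glycolysis and immediate early genes are higher in the highest than in the lowest decile, and DNA replication and mitosis lower. Control 2 shows no rise of immediate early genes between the fifth decile (1950 CPM) and the ninth (1876 CPM), in which the threshold lies.

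Few antigen presentation genes could be compared. Of 7 MHC class I presentation genes at this level, 2 were higher and 1 was lower, against 5.71% and 11.9% of all genes compared. The 1 lower gene is thus near the share over all genes. H2-K1, a classical class I heavy chain (chr17:33996017-34000347, minus strand), had 192, 208, 183 and 171 CPM in hypoxic cells and 102, 115, 55.01 and 37.4 CPM in the other gated cells. H2-T23, a non-classical one, had 28.9, 36.4, 25.4 and 24.8 CPM in hypoxic cells and 11.5, 19.7, 6.90 and 3.70 CPM in the other gated cells. After TMM normalisation none of the 7 was lower. The lower gene was Psmb10, an immunoproteasome subunit, which had 17.5, 24.5, 20.8 and 26.3 CPM in hypoxic cells and 42.03, 72.5, 39.1 and 44.6 CPM in the other gated cells, and Irgm1, an interferon-induced GTPase and the 1 lower gene of 4 in the interferon gamma list, 5.18, 11.8, 1.81 and 1.88 CPM in hypoxic cells and 15.8, 51.2, 5.49 and 7.37 CPM in the other gated cells. B2m, the light chain shared by class I molecules, was below 0 in every library with a median of -0.31. Class I heavy chains are near-identical, so how reads were split between them is uncertain.

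Within the hypoxic cells, nanocapsule and control tumours were compared on UMIs summed per library, with the score genes left out of the test since they set who was counted. Of 11550 genes tested with edgeR's quasi-likelihood test at a Benjamini-Hochberg adjusted p of 0.05, 13 were higher and 8 lower in nanocapsule libraries, which is 0.113% and 0.0693% of them, 0.182% together. At an unadjusted p under 0.05 stood 1009 genes (8.74%). Groups did not overlap for 20.5% of genes on the higher and 19.7% on the lower side. The median log2 difference over all genes was -0.003. The number of calls depended on single libraries: it was 3 without Nanocapsule 2, 226 without Control 2 and 134 without Control 1, and 28 without Nanocapsule 1. In these fits a group of 1 library is assumed to vary like the other. Among the 583 cells, Control 2 contributed 38.

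B2m (chr2:122147686-122153083, plus strand) was the firmest of them. It had 391 and 462 TMM-normalised CPM in nanocapsule hypoxic cells, against 192 and 157 in control hypoxic cells, a log2 difference of 1.28 ± 0.13 (SE) with an edgeR adjusted p of 0.000293. It was called under all 16 alternatives, with adjusted p up to 0.0129. In the other gated cells B2m showed nearly the same difference, 1.26 ± 0.10, which did not pass (adjusted p = 0.120), and the difference between the cell sets was 0.05 ± 0.11 (adjusted p = 0.996). It was the 1 call left when only the top 10% of the score was taken (389 cells), and likewise when cells with any immune UMI were left out (402 hypoxic cells). The other 20 genes had the same direction in both of these smaller sets, and without immune UMIs 10 of them had a difference at least as large. Without immune UMIs the log2 difference was 0.74 for Fem1b and -0.82 for Wbp1, against 0.68 and -0.78 in all hypoxic cells, while it was 0.45 for Bst2 and 0.56 for Isg15, against 0.70 and 1.18. The adjusted p of the 20 genes then ran from 0.0779 to 0.682 with edgeR. Cd74 is among the immune genes, and whether this gate also removed tumour cells with immune-gene RNA of their own was not tested. Immune RNA in all hypoxic cells stood at 6.22 and 38.2 CPM in nanocapsule libraries and 13.9 and 4.89 CPM in control libraries.

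The interferon-induced genes Bst2 and Isg15 were higher as well. Bst2, tetherin, had 102 and 109 TMM-normalised CPM in nanocapsule hypoxic cells and 66.4 and 62.9 in control ones, and Isg15, a ubiquitin-like modifier, 15.98 and 14.6 in nanocapsule hypoxic cells and 7.49 and 4.92 in control ones. Of 13 MHC class I presentation genes tested, 1 passed (B2m) and the median log2 difference was 1.18. Without overlap between the groups, 12 were higher, against 20.5% of all genes tested. Psmb10 was the exception in the class I list, with 17.7 and 24.1 TMM-normalised CPM in nanocapsule hypoxic cells and 20.97 and 26.5 in control ones. The list was alike in the other gated cells, where 13 of 14 were higher without overlap (17.8% of all genes), with a median of 1.24. In both cell sets the low-count filter could admit a gene low in controls through the nanocapsule libraries alone, which can add to such counts.

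The other rises were in genes of varied roles. Slc2a3, the glucose transporter GLUT3 (chr6:122727809-122801640, minus strand), had 21.6 and 26.96 TMM-normalised CPM in nanocapsule hypoxic cells and 10.3 and 10.2 in control ones, a log2 difference of 1.23 ± 0.19 (edgeR adjusted p = 0.0226). Gadd45g, a stress sensor, had 27.6 and 28.9 in nanocapsule hypoxic cells and 13.6 and 14.01 in control ones. Fem1b, a substrate receptor of a CUL2 ubiquitin ligase (chr9:62791821-62811934, minus strand), had 139.9 and 145 in nanocapsule hypoxic cells and 89.2 and 87.5 in control ones, a log2 difference of 0.68 ± 0.11. Vgll3, a cofactor of TEAD transcription factors, had 143 and 133 in nanocapsule hypoxic cells and 88.7 and 88.2 in control ones. Adamts1, a secreted protease, Enc1, an actin-binding kelch protein, and Arfgef3 rose by 0.68 ± 0.12, 0.73 ± 0.12 and 0.74 ± 0.13 on the log2 scale. Gxylt2 and Tmem179, both under 20 CPM on average, rose too.

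The 8 falls included 2 p53 target genes. Phlda3, which restrains AKT signalling, had 52.8 and 50.3 TMM-normalised CPM in nanocapsule hypoxic cells and 83.02 and 119 in control ones, a log2 difference of -0.93 ± 0.15 (edgeR adjusted p = 0.0226). Ccng1, cyclin G1, had 69.7 and 58.7 in nanocapsule hypoxic cells and 98.6 and 128 in control ones (log2 difference -0.79 ± 0.14). Of the 10 p53 targets and apoptosis genes tested, 0 passed as higher and 2 as lower, against 0.113% and 0.0693% of all genes. The list's median was -0.25, and 3 of its genes had a difference above 0. Cdkn1a overlapped between the groups, with 410.5 and 611 in nanocapsule hypoxic cells and 466 and 650.2 in control ones. The carbonic anhydrases Car14 and Car6 also fell. Car14, a membrane-bound enzyme, had 111 and 108 in nanocapsule hypoxic cells and 184 and 162 in control ones, and the secreted Car6 had 226 and 233 in nanocapsule hypoxic cells and 333 and 431 in control ones. The remaining falls were Pik3r3 (a regulatory subunit of PI3-kinase), Mxd4 (a MYC antagonist), Wbp1 and Enpp2 (autotaxin, which makes lysophosphatidic acid), by 0.69 to 0.78 on the log2 scale. For all 8 genes both nanocapsule values lay below both control values.

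Within the hypoxia programme, few genes passed the test between treatments inside the hypoxic cells. The score genes, given as a description, had a median log2 difference of -0.001 between nanocapsule and control, with Ero1l at 2528 and 2682 TMM-normalised CPM in nanocapsule hypoxic cells and 2266 and 2379 in control ones. The small median partly follows from the threshold, and single score genes differed. Without overlap 2 of the 10 were higher and 3 lower, against 20.5% and 19.7% of all genes tested. Hif1a had 299 and 272 in nanocapsule hypoxic cells and 257 and 309 in control ones, a log2 difference of 0.02 ± 0.12 (edgeR adjusted p = 0.975). Epas1, which encodes HIF-2 alpha, was low, with 4.66 and 4.17 in nanocapsule hypoxic cells and 4.71 and 4.54 in control ones. Ldha differed by -0.15 ± 0.12 (edgeR adjusted p = 0.753). Of 19 glycolysis genes tested 1 passed, Slc2a3, and the median was -0.04.

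Hmox1 had 238 and 508 TMM-normalised CPM in nanocapsule hypoxic cells and 164 and 154 in control ones, without overlap but with a wide spread between the nanocapsule libraries (log2 difference 1.23 ± 0.51, edgeR adjusted p = 0.668). Cat, catalase, which removes hydrogen peroxide and releases oxygen, had 20.6 and 26.1 in nanocapsule hypoxic cells and 23.3 and 31.4 in control ones, with overlap (-0.18 ± 0.18, edgeR adjusted p = 0.820). Of 17 integrated stress response genes 11 were higher without overlap, against 20.5% of all genes tested, with a median of 0.30 and 0 past the threshold. Chac1, which breaks down glutathione, had 101 and 112 in nanocapsule hypoxic cells and 80.02 and 62.1 in control ones (edgeR adjusted p = 0.112). Of 27 nuclear respiratory chain genes 0 were higher and 12 were lower without overlap, with a median of -0.11 and 0 past the threshold. The mitochondrial respiratory chain genes went the other way: of 13, 5 were higher and 0 lower without overlap. Their median was 0.21, with 0 past the threshold. Among all genes tested 20.5% were higher and 19.7% lower without overlap.

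Whether treatment differences in hypoxic cells exceeded those in the other gated cells was tested as an interaction, each library serving as its own control. Of 14272 genes 9 passed (0.0631%), while 448 were above 0 and 341 below 0 at an unadjusted p under 0.05. In the other gated cells alone, 0 of 14771 genes passed with edgeR, although those sums rest on far more cells. At an unadjusted p under 0.05 stood 461 higher and 264 lower genes, and the smallest edgeR adjusted p was 0.120. This does not show that those cells lack a treatment difference. Of 17 interferon gamma response genes tested there, 17 were higher without overlap (17.8% of all genes), with a median log2 difference of 3.11. The low-count filter could admit a gene low in controls through the nanocapsule libraries alone. The count and the median therefore follow in part from the filter, which the share over all genes does not correct. Only 6 genes of this list were tested in hypoxic cells, under the same filter, so their median is not of the same genes. It was 1.61, and 5 of the 6 were higher without overlap (20.5% of all genes). The interaction fit tested 17 genes of the list. Their median difference of differences was -0.18, and 0 passed.

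For Slc2a3 the joint fit of both cell sets gave 23.6 and 29.1 TMM-normalised CPM in nanocapsule and 11.1 and 10.8 in control hypoxic cells, with 9.35 and 10.7 in nanocapsule and 9.96 and 9.82 in control other gated cells. The log2 difference of differences was 1.23 ± 0.21 (edgeR adjusted p = 0.00395). Fem1b followed the same pattern, with 153 and 156 in nanocapsule and 96.5 and 92.5 in control hypoxic cells, and 48.00 and 47.97 in nanocapsule and 47.7 and 44.3 in control other gated cells (0.65 ± 0.12, edgeR adjusted p = 0.0103). Egr1, an immediate early transcription factor, had 58.5 and 90.6 in nanocapsule and 27.7 and 48.5 in control hypoxic cells, and 12.6 and 20.3 in nanocapsule and 15.9 and 20.9 in control other gated cells (1.21 ± 0.16, edgeR adjusted p = 2.59e-05). In these 3 genes the nanocapsule and control values did not overlap in the hypoxic cells and were close together or overlapping in the other gated cells.

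H2-K1 went the other way. It had 212 and 220.1 TMM-normalised CPM in nanocapsule and 199 and 182 in control hypoxic cells, against 95.9 and 105 in nanocapsule and 52.2 and 33.8 in control other gated cells. The difference of differences was -1.05 ± 0.13 (edgeR adjusted p = 0.000182). Every hypoxic value, with and without nanocapsules, was above every value of the other gated cells, and the nanocapsule difference lay mainly in the other gated cells. Among cells without immune UMIs the value was -0.83 and did not pass. H2-T23 showed a difference of differences of similar size (-1.06, edgeR adjusted p = 0.268), which did not pass, and B2m none, as given above.

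**Figure D5:**
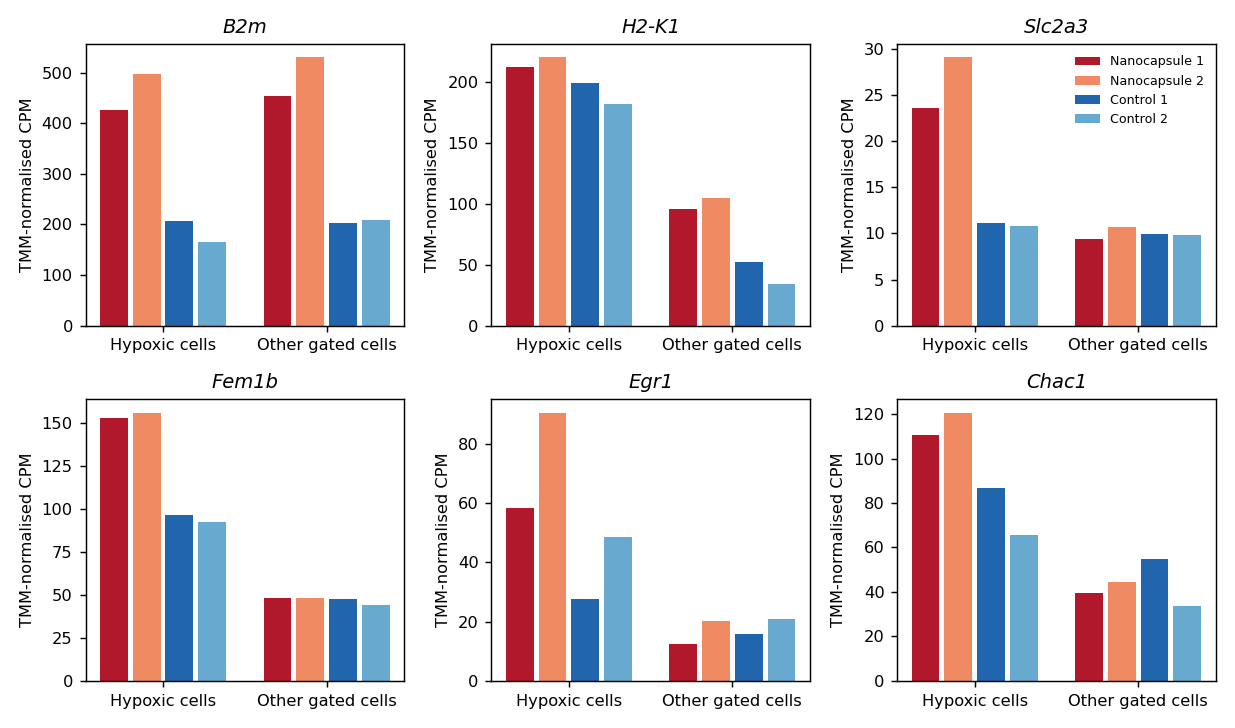
TMM-normalised CPM of 6 genes in hypoxic and other gated cells, 1 bar per library (red shades nanocapsule, blue shades control). B2m is higher in nanocapsule libraries in both cell sets, H2-K1 mainly in the other gated cells, and Slc2a3, Fem1b, Egr1 and Chac1 in the hypoxic cells.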

How the data were processed

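Per the labels' protocols, single cells were captured with the 10x Genomics 3′ v2 chemistry. The authors deposited unfiltered matrices of raw UMI counts, 1 per library, with 32285 genes each. The submitters' processing notes name Cell Ranger 2.1.1 and mm10, whereas the file headers name Cell Ranger 4, so the version is uncertain. Other settings, strand handling among them, are not given in the sources used here, so overlapping genes cannot be told apart.

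All sums, scores and tests were computed from these counts. The members and gene lists were chosen with earlier results of these data known. Where a symbol had several IDs, the one with most UMIs was used. Levels are CPM of UMIs summed over cells per library, with 0.5 UMI added to each sum in log2 ratios. Treatment was tested in R 4.3.3 with edgeR 4.0.16 (TMM, filterByExpr, robust quasi-likelihood test, Benjamini-Hochberg adjustment over all genes tested). The interaction fit took the hypoxic and other gated sums of each library, with library as a block. Standard errors are the log2 difference over the square root of the F statistic. DESeq2 1.42.0 and other gates, thresholds and scalings were alternatives. Scores, gates and shares used Python 3.11.15, and shares of 2 against 2 libraries an exact permutation test. The fits were also run on simulated data with the same dispersion for every gene and no library effect beyond size. That run does not test them for the spread between these libraries.

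Named genes are the score genes, the 12 most different in each direction at 20 CPM or more, up to 4 members of each list, called genes at 20 CPM or more without overlap, and Hif1a, Epas1, Hmox1, Cat and Ldha. Other genes were named after their values were seen. Of the called genes, 1 is not reported here by name. Coordinates are from GENCODE vM21 (GRCm38), matched by Ensembl ID.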

Additional observations from a re-analysis of the deposited data

Results flagged for a closer look

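The values below are differences of differences between the cell sets: the nanocapsule-over-control log2 difference in hypoxic cells minus that in the other gated cells, from edgeR's interaction test. They are listed because the test of that difference passed. It was 1.21 for Egr1 (edgeR adjusted p = 2.59e-05), 1.23 for Slc2a3 and 0.65 for Fem1b, and -1.05 for H2-K1, whose levels are given above.

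For Chac1 the value was 0.68 ± 0.13 (edgeR adjusted p = 0.0123). It had 110 and 121 TMM-normalised CPM in nanocapsule and 86.5 and 65.7 in control hypoxic cells, and 39.4 and 44.7 in nanocapsule and 54.8 and 33.5 in control other gated cells. For Ppargc1a, a coactivator of mitochondrial biogenesis, the value was 0.59 ± 0.12 (edgeR adjusted p = 0.0325). Its levels were 532 and 467 in nanocapsule and 463 and 280 in control hypoxic cells. In the other gated cells they were 272 and 243 in nanocapsule and 314 and 254 in control libraries. For Map1b, a microtubule-associated protein, the value was 0.69 ± 0.14 (edgeR adjusted p = 0.0248). Its levels were 69.9 and 80.0 in nanocapsule and 57.7 and 45.7 in control hypoxic cells. In the other gated cells they were 66.8 and 66.3 in nanocapsule and 74.4 and 79.1 in control libraries. For Tmem51 the value was -0.69 ± 0.14 (edgeR adjusted p = 0.0228). Its levels were 41.7 and 39.7 in nanocapsule and 59.8 and 73.3 in control hypoxic cells. In the other gated cells they were 97.0 and 87.3 in nanocapsule and 94.3 and 87.7 in control libraries. Of 15 alternatives, Ppargc1a fell short of the threshold in 10, Chac1 in 9, Tmem51 in 8, and Map1b and Fem1b in 7 each. Slc2a3 and H2-K1 fell short in 3 each and Egr1 in 2. Col1a1, given next, fell short in 8 of 14.

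For the collagen gene Col1a1 the value was 6.02 ± 1.21 (edgeR adjusted p = 0.0228), resting on 4 and 2 UMIs in nanocapsule and 1 UMI each in control hypoxic cells. In the other gated cells it had 0.134 and 0.0721 TMM-normalised CPM in nanocapsule and 1.45 and 8.72 in control libraries. Fibroblast markers summed to 31.2 CPM in the other gated cells of Control 2, against 1.68 to 5.63 CPM in those of the other 3 libraries, and their part in the value was not tested.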

How the results depend on the processing

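No called result changed sign under any alternative run. The share difference of 6.76 points was 2.20 to 11.3 when 1 library was left out, and 4.09 to 8.58 under the other gates and thresholds except the top 15% within each library, which fixes the share. Its exact permutation p was 0.667 without the cycling gate and 0.333 under those others. Genes called between nanocapsule and control in hypoxic cells (21) numbered 1 with the top 10% of the score, 47 with the top 20%, 43 with the top 15% within each library, 69 without the cycling gate, 1 in cells without immune UMIs and 182 without a low-count filter, and 3 to 226 when 1 library was left out. DESeq2's Wald test called 19, with 4482 adjusted p-values not given. Genes of the interaction (9) numbered 2 with the top 10%, 5 with the top 20%, 5 within each library, 4 with thinned scores, 61 without the cycling gate, 14 at 20000 UMIs or more, 1 without immune UMIs, 3 with DESeq2's Wald test and 38 without the filter, and 19 to 266 when 1 library was left out. Genes higher or lower in hypoxic cells (1448) numbered 427 at 2-fold, 2291 from 1 CPM and 554 from 50 CPM, and 1525 to 1692 when 1 library was left out. The causes of these shifts were not tested. TMM scaling of levels was chosen after seeing the data.

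The labels number the replicates 1 and 2 in both groups. With the replicate number as a block 56 genes were called, and deviations of same-numbered libraries correlated at 0.0378 over 11560 genes, so the numbers were not taken as pairs. For single genes, 312 of the values between treatments kept their side of the threshold under an alternative, 100 fell short of it and 1 (Hmox1 without Nanocapsule 1, 1.67) newly passed. In the interaction 77 kept it and 57 fell short. Control 2, with 38 hypoxic cells, limits the precision of every treatment comparison here.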
